A study of Mus musculus with 10 samples.

Results

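The genes described are those through which fibroblast growth factor 21 (FGF21) is made and read by its target cells: the ligand genes Fgf21 and Fgf1, the co-receptor gene Klb (beta-klotho), and the receptor genes Fgfr1, Fgfr2, Fgfr3 and Fgfr4. They were taken by gene name from a table of FPKM (fragments per kilobase of gene length, scaled for library size) and are 7 of its 54532 genes. All 7 were among the 13306 genes that passed the filter on low values. Livers of 10 mice on a C57BL/6J background had been sequenced in bulk, 5 per genotype. Control ASK1f/f littermates carried a murine ASK1 cDNA behind a loxP-flanked stop cassette at the ROSA26 locus and no Cre. ASK1+hep mice carried the same construct together with Alb-Cre, which removes the stop cassette in hepatocytes. Both genotypes had eaten a high-fat diet (HFD) for 7 weeks, started when they were 6 weeks old, and food had been withheld for 5 h before the liver was taken.

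Hepatocytes are the chief source of FGF21 in blood, and transcription of Fgf21 there responds to fasting through PPAR-alpha and to the integrated stress response through ATF4. It binds heparan sulfate weakly, so it leaves the tissue that makes it, and it signals only where a cell carries beta-klotho together with an FGF receptor, chiefly the receptor encoded by Fgfr1. FGFR4 with beta-klotho is the pair through which the intestinal hormone FGF15 lowers bile acid synthesis in hepatocytes. FGF1 acts locally, needs heparan sulfate and no klotho, and can bind each of the FGF receptors.

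The sequence before the start of Fgf21 is shown because this gene had the lowest p-value of all genes compared and because regulators of Fgf21 are listed among the genes described. The 250 bases upstream of the RefSeq start lie at chr7:45615491-45615740 of GRCm38.p6 and are given from the minus strand, 5′ to 3′, with motif matches in capitals.
Fgf21 promoter: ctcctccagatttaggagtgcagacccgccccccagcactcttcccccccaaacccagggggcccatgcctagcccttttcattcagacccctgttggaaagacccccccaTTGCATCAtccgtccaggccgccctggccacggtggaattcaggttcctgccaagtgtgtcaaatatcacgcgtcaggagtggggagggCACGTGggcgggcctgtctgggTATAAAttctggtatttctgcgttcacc
The first capitals are TTGCATCA, the reverse complement of TGATGCAA, which is the core of the response element of ATF4, a transcription factor of the integrated stress response. They lie 139 to 132 bases before the start, and 0.791% of 32851 promoter windows of this length held that motif on either strand. The second match is the E-box CACGTG, 50 to 45 bases before the start, which 6.02% of windows held. The third is TATAAA, searched on the given strand only, 28 to 23 bases before the start and present in 7.59% of windows. The AP-1 motif TGANTCA and the cyclic AMP response element TGACGTCA, held by 6.75% and 1.55% of windows, had no match in this window. Promoter windows were found for 5 of the 7 genes, and those of Klb, Fgfr2, Fgfr3 and Fgfr4 held none of these 5 motifs. The matches do not overlap one another, and a match of letters says nothing of binding in these livers.

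Libraries held 13367742 to 16163378 reads on genes, and median depth was close in both genotypes (14618268 in ASK1f/f and 15101619 in ASK1+hep). Map3k5, the gene of ASK1, ranged from 4.71 to 19.8 FPKM in controls and from 7.68 to 16.4 FPKM in ASK1+hep livers (adjusted p = 0.812, limma, Benjamini-Hochberg). The highest of the 10 values was in the library labelled ASK1f/f replicate 5, and without that library the log2 fold change of Map3k5 went from 0.60 to 0.92. In ASK1f/f replicate 5, Fgf21 (3.21 FPKM) and Fgfr1 (1.05 FPKM) lay within the range of the other controls. Its Fgf1 (17.1 FPKM) was the lowest of the controls and lay within the ASK1+hep range (11.7 to 22.7 FPKM). Its Nr0b2, a gene of bile acid control, was the highest of the controls (32.5 FPKM). That value lay within the ASK1+hep range of 27.3 to 56.6 FPKM. Whether the label of this library is right was not tested. Values of the 7 genes are also given without this library. Hepatocyte markers, with Alb among them, summed to 34100 to 46300 FPKM in controls and to between 40600 and 50300 FPKM in ASK1+hep livers. Macrophage markers summed to 175 to 295 and 111 to 260 FPKM, and 10 of 10 had a lower mean log2 level in ASK1+hep, with overlapping sums (exact permutation p = 0.357). Stellate cell markers summed to 24.6 to 35.5 and 18.8 to 34.9 FPKM, endothelial markers to 55.5 to 72.3 and 46.5 to 88.5 FPKM, and cholangiocyte markers to 19.1 to 37.3 and 22.2 to 34.9 FPKM. Lymphocyte markers summed to no more than 3.76 FPKM in any liver. Of the adipocyte markers, Lep and Ucp1 had 0 reads, Cidea ranged from 0.103 to 46.0 FPKM and Fabp4 from 1.29 to 3.76 FPKM. Of the pancreatic acinar markers most of the sum was Cela1, and Amy2a5 had 0 reads. In bulk tissue, fewer cells of a type and less RNA per cell cannot be told apart.

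Differences between genotypes were tested by limma on the log2(FPKM + 1) scale and adjusted over all genes past the filter. At an adjusted p of 0.05, 0 of 13306 genes were called (0%), and 0 of the 7 genes of the axis. Without adjustment, 768 genes (5.77% of those compared) had a p under 0.05, among them 3 of the 7: Fgf21, Fgf1 and Fgfr1. With other weights, limma-voom called 0 genes and limma-voom with sample quality weights called 1, Fgf21. The values of the genotypes did not overlap for 115 genes (0.864%), among them 2 of the 7, Fgf21 and Fgfr1. The 7 genes were chosen with earlier results of these data known, so these shares are no test of the set. Of the 7 log2 fold changes, 3 were above 0 and 4 below, and the median over all genes compared was -0.0065. The p-values set a difference of means against the spread between these animals, and limma also draws on the spread of all genes.

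**Figure D1:**
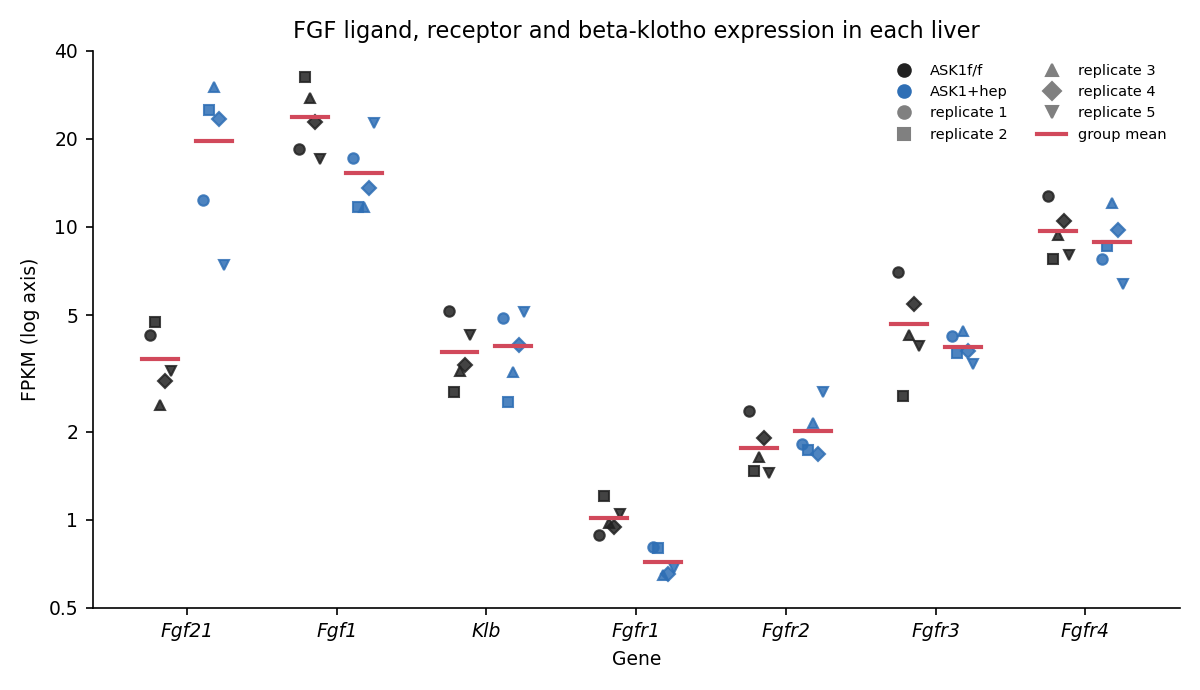
FPKM (log axis) of each gene in each liver, with ASK1f/f in black, ASK1+hep in blue, a marker shape for each replicate number and a red line at the group mean (n = 5). The ASK1+hep points lie wholly above the ASK1f/f points for Fgf21 (7.40 to 30.1 against 2.46 to 4.74 FPKM), wholly below them for Fgfr1 (0.647 to 0.808 against 0.886 to 1.20 FPKM), and overlap them for the other 5 genes.

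Among the ligands, Fgf21 was higher in every ASK1+hep liver than in any control liver, and Fgf1 was lower on average with overlapping values. Fgf21 (ENSMUSG00000030827), a gene of 3 exons on chromosome 7 (GRCm38, 45613886 to 45615490, minus strand), overlaps no other gene. Its values in ASK1f/f replicates 1 to 5 were 4.28, 4.74, 2.46, 2.97 and 3.21 FPKM. In ASK1+hep replicates 1 to 5 they were 12.3, 25.0, 30.1, 23.4 and 7.40 FPKM. Replicates 2, 3 and 4 of ASK1+hep were the highest, and replicate 5 was the lowest of its group while still above every control. Mean Fgf21 was 3.53 ± 0.948 FPKM in controls and 19.7 ± 9.45 FPKM in ASK1+hep livers (SD, n = 5 each), a 5.57-fold ratio.

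The log2 fold change of Fgf21 was 2.06 (SE 0.322, 95% interval 1.36 to 2.76), the lowest p of all genes compared, with an adjusted p of 0.355 (limma, Benjamini-Hochberg). By the exact two-sided permutation test p was 0.00794, the smallest that 5 against 5 unpaired livers can give. The adjusted p ranged from 0.0161 to 0.917 over 20 alternative fits and was lowest without ASK1+hep replicate 5, where the log2 fold change was 2.35. Leaving out ASK1f/f replicate 5, the library with the highest Map3k5, gave a log2 fold change of 2.04 and an exact permutation p of 0.0159. Within the 8 livers whose animal tags share a prefix (4 per genotype) it was 2.24, with an exact permutation p of 0.0286. Fgf21 rested on 35 to 395 reads per liver. The spread between livers, a coefficient of variation of 26.8% in ASK1f/f and 48.0% in ASK1+hep, was larger than the counting error of the mean number of reads, 13.8% and 6.13%.

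Fgf1 (ENSMUSG00000036585), whose product is the local FGF that binds every FGF receptor, is on chromosome 18 (38838673 to 38929404, minus strand). In GENCODE M21 its span overlaps Arhgap26 and AC110730.1 on the opposite strand, and no exon base is shared. That gene model ends at 38929472 and holds 5463 exon bases, against a length of 4648 behind the FPKM. It thus differs from the model that was counted, and the FPKM of Fgf1 depends on that length. Fgf1 was at 18.4, 32.5, 27.6, 22.9 and 17.1 FPKM in ASK1f/f replicates 1 to 5. It was at 17.2, 11.7, 11.7, 13.5 and 22.7 FPKM in ASK1+hep replicates 1 to 5. The lowest 3 values belonged to ASK1+hep livers and the highest 3 to control livers, while ASK1+hep replicates 1 and 5 lay within the control range. Mean Fgf1 was 23.7 ± 6.41 FPKM in controls and 15.3 ± 4.67 FPKM in ASK1+hep livers (SD, n = 5 each), which is 35.2% lower. The log2 fold change was -0.60 (SE 0.213, 95% interval -1.06 to -0.13) with an adjusted p of 0.812 by limma and an exact permutation p of 0.0397. It was -0.70 without ASK1f/f replicate 5 (exact permutation p = 0.0317). The exact permutation p rose above 0.05, to 0.0635 to 0.0952, in 7 of the 10 comparisons that left out a single liver, which were those without ASK1f/f replicate 2, 3 or 4 and those without ASK1+hep replicate 1, 2, 3 or 4. Within the 8 livers of the shared tag prefix the log2 fold change was -0.73 (exact permutation p = 0.0571).

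The relative level of the ligands, a measure chosen after the values were seen, is given as a description without a p-value. FPKM of Fgf21 per FPKM of Fgf1 was 0.233, 0.146, 0.0893, 0.130 and 0.188 in ASK1f/f replicates 1 to 5, so Fgf1 exceeded Fgf21 in each control liver. The ratio was 0.718, 2.15, 2.58, 1.73 and 0.327 in ASK1+hep replicates 1 to 5. By FPKM, Fgf21 thus exceeded Fgf1 in 3 of 5 ASK1+hep livers, and the ratios of the genotypes did not overlap. The geometric means differed 7.88-fold, which combines the differences of Fgf21 and Fgf1 already given.

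In the ASK1+hep livers the order of Fgf1 was the exact reverse of that of Fgf21. From the highest to the lowest Fgf21 value (replicates 3, 2, 4, 1 and 5), Fgf1 was at 11.6647, 11.6649, 13.5, 17.2 and 22.7 FPKM, and the first 2 differed by less than counting error. Of 10 pairs of livers within this genotype, Fgf1 and Fgf21 ran in opposite directions in 10, against 5 of 10 pairs within ASK1f/f. Klb ran opposite to Fgf21 in 9 of 10 pairs and Fgfr4 ran with Fgf21 in 9 of 10. Fgfr1 and Fgfr2 ran opposite to Fgf21 in 7 and 6 of 10 pairs, and Fgfr3 ran with Fgf21 in 7. Within ASK1f/f the corresponding counts were 4 of 10 for Klb and 4 of 10 for Fgfr4. For Fgfr1, Fgfr2 and Fgfr3 they were 4, 5 and 4 of 10. These pairs share their livers and 5 livers are too few for a correlation, so they are given as a description with no test. How many of all genes ran with or opposite to Fgf21 was not counted. Outside the axis, Map3k5 and Ppara ran opposite to Fgf21 in 9 and 8 of 10 ASK1+hep pairs, and Atf4 ran with it in 8. No correlation pooled over genotypes is given for Fgf21, since its values fall into separate ranges.

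**Figure D2:**
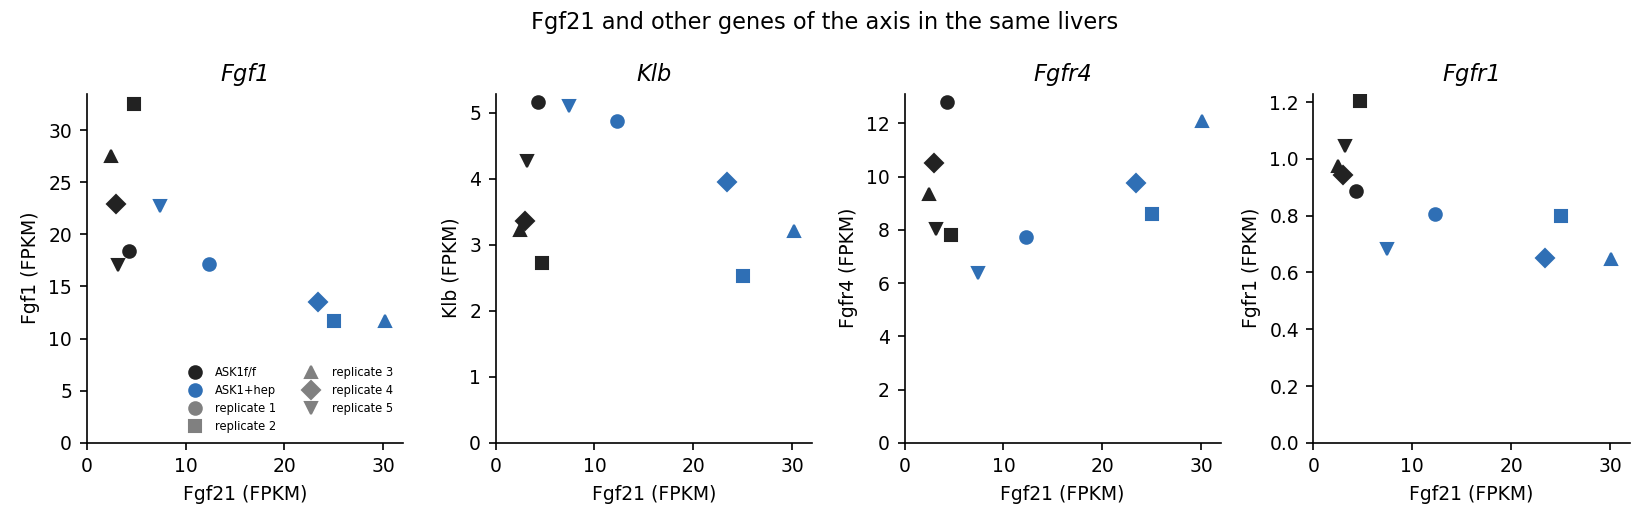
FPKM of Fgf1, Klb, Fgfr4 and Fgfr1 (linear y axes from 0) against FPKM of Fgf21 in the same liver, with ASK1f/f in black, ASK1+hep in blue and a marker shape for each replicate number. Along the blue points Fgf1 goes from 22.7 FPKM at the lowest Fgf21 value to 11.7 FPKM at the highest, while Fgfr4 goes from 6.39 to 12.1 FPKM.

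The co-receptor gene Klb (ENSMUSG00000029195, plus strand of chromosome 5 from 65348314 to 65384007, 5 exons, no overlapping gene) overlapped between genotypes. In ASK1f/f replicates 1 to 5 Klb was at 5.16, 2.72, 3.22, 3.37 and 4.27 FPKM. In ASK1+hep replicates 1 to 5 it was at 4.87, 2.53, 3.21, 3.94 and 5.11 FPKM. Replicate 2 was the lowest of its group in each genotype, and the ranges overlapped almost fully. Means were 3.75 ± 0.968 and 3.93 ± 1.09 FPKM (SD, n = 5 each), on 149 to 392 reads per liver. The log2 fold change was 0.049 (SE 0.179) with an adjusted p of 0.959 by limma. Its 95% interval of -0.34 to 0.44 bounds the differences these livers allow, and the sign turned, to -0.012, when values were scaled by all reads. It also lay below 0 without ASK1f/f replicate 2 (-0.033), ASK1+hep replicate 1 (-0.021) or ASK1+hep replicate 5 (-0.036).

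Among the receptors, Fgfr1 was lower in every ASK1+hep liver than in any control, and Fgfr2, Fgfr3 and Fgfr4 overlapped. Fgfr1 (ENSMUSG00000031565, plus strand of chromosome 8 from 25513654 to 25575718, 18 exons) encodes the receptor that FGF21 uses in adipose tissue and brain. It was at 0.886, 1.20, 0.975, 0.945 and 1.05 FPKM in ASK1f/f replicates 1 to 5. It was at 0.808, 0.799, 0.647, 0.651 and 0.684 FPKM in ASK1+hep replicates 1 to 5. Each ASK1+hep value lay below the lowest control value, by a narrow margin for replicates 1 and 2. Mean Fgfr1 was 1.01 ± 0.122 FPKM in controls and 0.718 ± 0.0794 FPKM in ASK1+hep livers (SD, n = 5 each), 29.0% lower.

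The log2 fold change of Fgfr1 was -0.23 (SE 0.0659, 95% interval -0.37 to -0.08), with an adjusted p of 0.804 by limma and an exact permutation p of 0.00794. A pseudocount of 1 is about as large as these values and shrinks the difference, which was -0.44 on log2(FPKM + 0.1). Without ASK1f/f replicate 5 the log2 fold change was -0.22 (exact permutation p = 0.00794), and within the 8 livers of the shared tag prefix it was -0.27 (exact permutation p = 0.0286). Fgfr1 rested on 88 to 187 reads per liver, and its spread between livers (coefficients of variation of 12.1% and 11.1%) was near the counting error of 8.02% and 9.86%. Of its exon bases, 1.66% are shared with Gm16159 on the opposite strand, which had at most 1 read in any liver. Fgfr1 is also expressed by non-parenchymal cells. The stellate cell and macrophage marker sums given above had lower means in ASK1+hep too (26.2 against 30.5 FPKM and 185 against 215 FPKM). The cholangiocyte and lymphocyte sums had higher means (29.1 against 26.1 FPKM and 2.76 against 2.57 FPKM), and the endothelial means were 65.7 against 66.1 FPKM. All of these ranges overlapped, and the part of these cells in the Fgfr1 difference was not tested.

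Fgfr4 (ENSMUSG00000005320, plus strand of chromosome 13 from 55152640 to 55168759, 18 exons), the main FGF receptor gene of hepatocytes, had the highest FPKM of the 4 receptors in each of the 10 livers. It was at 12.8, 7.80, 9.36, 10.5 and 8.02 FPKM in ASK1f/f replicates 1 to 5. It was at 7.75, 8.60, 12.1, 9.77 and 6.39 FPKM in ASK1+hep replicates 1 to 5. High and low livers occurred in both genotypes, and means were 9.70 ± 2.05 and 8.92 ± 2.15 FPKM (SD, n = 5 each). The log2 fold change was -0.12 (SE 0.169, 95% interval -0.49 to 0.25, adjusted p = 0.881 by limma), and 0.020 without replicate 1 of each genotype, whose animal tags have another prefix. Leaving out ASK1f/f replicate 1 gave -0.019 and leaving out ASK1+hep replicate 5 gave -0.017, while leaving out ASK1f/f replicate 2 gave -0.18 and leaving out ASK1+hep replicate 3 gave -0.22.

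Fgfr3 (ENSMUSG00000054252, plus strand of chromosome 5 from 33721674 to 33737068, 17 exons) was at 7.04, 2.64, 4.27, 5.45 and 3.93 FPKM in ASK1f/f replicates 1 to 5. In ASK1+hep replicates 1 to 5 it was at 4.24, 3.71, 4.40, 3.77 and 3.40 FPKM. The ASK1+hep values all lay between the lowest and the highest control value, and the coefficient of variation was 35.6% in ASK1f/f and 10.5% in ASK1+hep. The means were 4.67 ± 1.66 and 3.90 ± 0.411 FPKM (SD, n = 5 each), with a log2 fold change of -0.16 (SE 0.182, 95% interval -0.56 to 0.24, adjusted p = 0.849 by limma). That value was -0.023 without ASK1f/f replicate 1, -0.10 without ASK1f/f replicate 4 and -0.31 without ASK1f/f replicate 2. An antisense gene, G630022F23Rik, shares 13.9% of the exon bases of Fgfr3 and had at most 4 reads in any liver.

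Fgfr2 (ENSMUSG00000030849, chromosome 7, 130162451 to 133123350, minus strand) shares 3.04% of its exon bases with Ctbp2 on the same strand, which was listed at 0.0870 to 0.214 FPKM. Fgfr2 was at 2.35, 1.47, 1.64, 1.90 and 1.44 FPKM in ASK1f/f replicates 1 to 5. It was at 1.81, 1.73, 2.14, 1.67 and 2.72 FPKM in ASK1+hep replicates 1 to 5. The highest value was in ASK1+hep replicate 5 and the next in ASK1f/f replicate 1, and the ranges overlapped. Means were 1.76 ± 0.379 and 2.02 ± 0.434 FPKM (SD, n = 5 each), with a log2 fold change of 0.13 (SE 0.123, 95% interval -0.14 to 0.39, adjusted p = 0.838 by limma). It was 0.047 without ASK1+hep replicate 5 and 0.20 without ASK1f/f replicate 1. Without ASK1f/f replicate 5, the library with the highest Map3k5, the log2 fold change was 0.084 for Fgfr2, -0.20 for Fgfr3, -0.17 for Fgfr4 and 0.092 for Klb. The exact permutation p was 0.810 for Klb, 0.548 for Fgfr4, 0.437 for Fgfr3 and 0.317 for Fgfr2, which does not show that levels were equal.

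**Figure D3:**
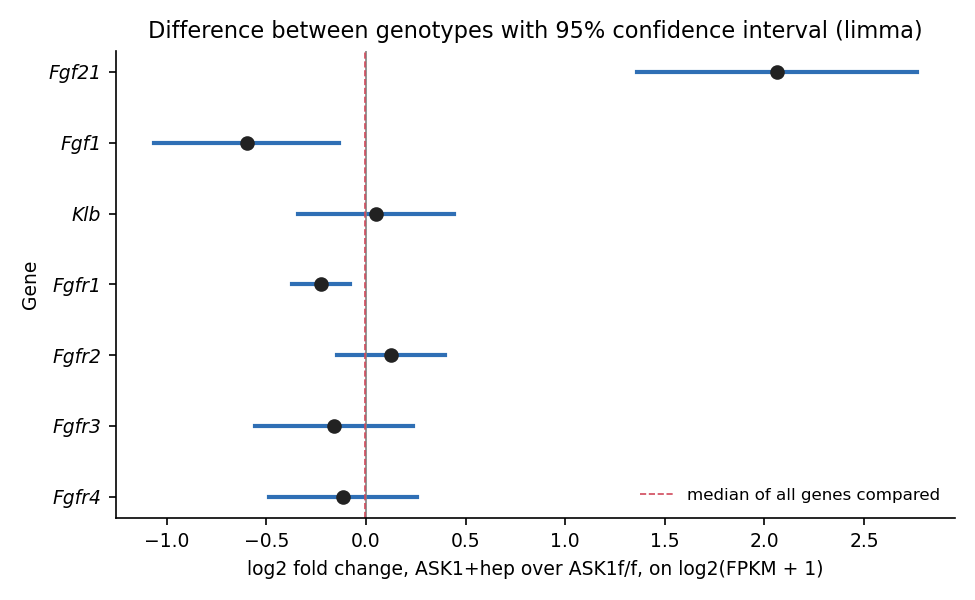
Log2 fold change of each gene, ASK1+hep over ASK1f/f on log2(FPKM + 1), as a point with its 95% confidence interval from limma (5 livers per genotype). A solid line marks 0 and a dashed line the median of all genes compared, and the intervals of Fgf21, Fgf1 and Fgfr1 lie off 0 while the other 4 span it.

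For the receptor genes, FPKM divides reads by the joined exon length of all annotated transcripts, not only of those made in liver. This length was 10328 bases for Fgfr2, 9875 for Fgfr1, 7158 for Fgfr3 and 3542 for Fgfr4. The order of genes by FPKM depends on such lengths. By reads, Fgfr3 exceeded Fgfr4 in ASK1f/f replicates 1 (841 against 757) and 4 (594 against 567). Fgfr3 also exceeded Fgfr4 in ASK1+hep replicates 1 (518 against 468) and 5 (335 against 312). In the other livers Fgfr4 had more reads, as in ASK1+hep replicate 3 (589 against 434). In ASK1f/f the order of mean FPKM was Fgf1, Fgfr4, Fgfr3, Klb, Fgf21, Fgfr2 and Fgfr1. The ranges of Fgfr3 and Klb overlapped, as did those of Klb and Fgf21, and the remaining neighbours were separated in all 5 control livers. In ASK1+hep the order was Fgf21, Fgf1, Fgfr4, Klb, Fgfr3, Fgfr2 and Fgfr1. There Fgf21 exceeded Fgf1 in 3 of 5 livers, Fgf1 exceeded Fgfr4 in 4 of 5 and Klb exceeded Fgfr3 in 3 of 5, so these neighbours did not differ beyond their spread.

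The summed FPKM of the 4 receptor genes was 17.1 ± 3.95 in controls and 15.6 ± 2.28 in ASK1+hep livers (SD, n = 5 each, exact permutation p = 0.532). Fgfr4 made up 48.5% to 62.7% of this sum over all livers, with means of 56.8% ± 1.73 and 56.7% ± 5.96 (SD, n = 5 each). The size of each share depends on the gene lengths given above. Fgfr3 made up 26.6% ± 3.96 and 25.3% ± 2.38, and Fgfr1 6.26% ± 2.06 and 4.71% ± 0.940 (SD, n = 5 each). The share of Fgfr2 was 10.2%, 11.2%, 10.1%, 10.1% and 9.98% in ASK1f/f replicates 1 to 5. It was 12.4%, 11.7%, 11.1%, 10.5% and 20.6% in ASK1+hep replicates 1 to 5. Replicate 5 of ASK1+hep stood far above the other livers, and the groups overlapped at ASK1f/f replicate 2. The Fgfr2 share was higher by 2.94 percentage points in ASK1+hep (exact permutation p = 0.0238), and by 1.11 without ASK1+hep replicate 5 (exact permutation p = 0.0397). Without any single control liver p was 0.0635 to 0.119, and the exact permutation p of the other shares was 0.159 for Fgfr1, 0.532 for Fgfr3 and 0.992 for Fgfr4, with no adjustment over the 4 shares.

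**Figure D4:**
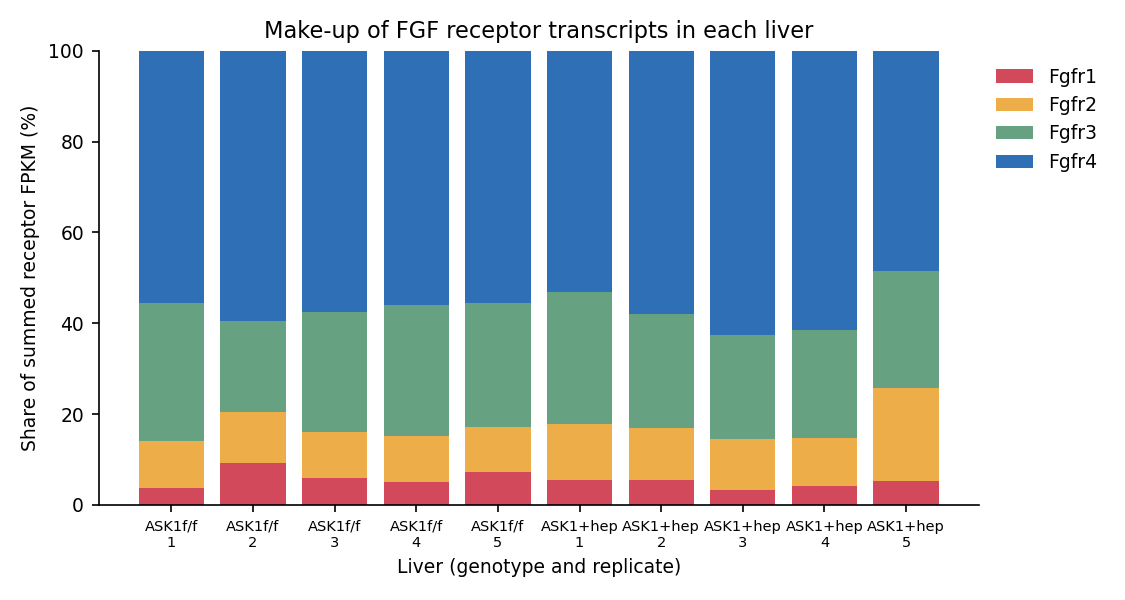
Share of Fgfr1, Fgfr2, Fgfr3 and Fgfr4 in their summed FPKM (stacked bars, 0 to 100%) in each of the 10 livers, by genotype and replicate. Fgfr4 takes 48.5% to 62.7% of each bar, and the Fgfr2 segment is widest, at 20.6%, in ASK1+hep replicate 5.

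Correlations across the 10 livers were computed for the 15 pairs of the 6 genes other than Fgf21. The Fgfr1 values also fall into separate ranges by genotype, so each pooled r with Fgfr1 includes that difference. The genes share libraries and depth. After Benjamini-Hochberg adjustment 0 of 15 pairs had a p at or below 0.05, and 2 did before it. Fgfr3 and Fgfr4 had r = 0.75 (permutation p = 0.0118, adjusted 0.177) and rho = 0.77 (permutation p = 0.0129, adjusted 0.193). Their r was 0.65 without the 2 livers farthest from the median of Fgfr3, ASK1f/f replicates 1 and 2, and 0.67 in the 8 livers whose animal tags share a prefix. Fgf1 and Fgfr1 had r = 0.70 (permutation p = 0.0269, adjusted 0.201) and rho = 0.71 (permutation p = 0.0268, adjusted 0.201). That r fell to 0.41 without ASK1f/f replicates 2 and 3 and was 0.34 over all 10 livers after the genotype means were removed, so the relation did not hold in either case.

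Lists of other genes of the pathway were read from the same fit, and none of their genes passed the adjusted threshold or separated the genotypes. The lists were chosen with earlier results of these data known, so setting their shares beside that of all genes is no test. Of 20 other FGF ligand genes, 10 had no read in any liver, Fgf15 among them, and 2 passed the filter. Those were Fgf2 with 16 to 40 reads and Fgf11 with 7 to 19 reads per liver, at 0.250 and 0.220 FPKM on average in controls and 0.263 and 0.270 FPKM in ASK1+hep livers. Of 22 co-receptor, FGF-binding and heparan sulfate genes 16 passed the filter, 4 with a mean log2 level higher and 12 lower in ASK1+hep (median log2 fold change -0.084), and 1 of the 16 had an unadjusted p under 0.05, against 5.77% of all genes compared. Gpc4, a glypican that carries heparan sulfate, went from 18.1 ± 2.53 to 14.5 ± 2.13 FPKM (SD, n = 5 each), with a log2 fold change of -0.30 (SE 0.127) and an adjusted p of 0.812 by limma. Its unadjusted p of 0.0347 was the lowest of the list, whose other named genes were Gpc1 (4.24 and 6.45 FPKM), Sdc4 (186 and 213 FPKM) and Gpc3 (0.469 and 0.269 FPKM). Kl, the klotho that serves FGF23 in the kidney, had at most 2 reads in any liver.

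All 24 genes of FGF receptor signalling passed the filter, 8 with a higher and 16 with a lower mean log2 level in ASK1+hep (median log2 fold change -0.039). Pik3r1, the regulatory subunit of PI3-kinase, went from 8.35 ± 1.45 to 6.03 ± 1.74 FPKM (SD, n = 5 each), a log2 fold change of -0.43 (SE 0.169), with an adjusted p of 0.812 by limma. Plcg1 was at 5.95 and 5.03 FPKM in ASK1f/f and ASK1+hep, and Pik3ca, the catalytic partner of Pik3r1, at 3.38 and 3.88 FPKM. Hras, at 11.5 FPKM in controls, had a log2 fold change of 0.28 (SE 0.214), and 0.089 without ASK1+hep replicate 3. Without the same liver Plcg1 went from -0.23 to -0.089. Of 19 feedback and ERK response genes, which FGF signalling is known to induce, 14 passed the filter, 7 higher and 7 lower (median log2 fold change -0.0064). Spry2, a feedback inhibitor, was at 0.306 and 0.439 FPKM, Ier2 at 15.2 and 18.9 FPKM, Ccnd1 at 2.96 and 2.20 FPKM, and Dusp4 at 0.512 and 0.309 FPKM. The log2 fold change of Dusp4 was -0.19, and -0.054 without ASK1f/f replicate 5, while that of Ier2 was 0.23, and 0.072 without ASK1+hep replicate 3. An unadjusted p under 0.05 was found for 1 of the 24 and 0 of the 14, against 5.77% of all genes compared.

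Of 4 genes of bile acid synthesis and its control that lie downstream of FGFR4 and beta-klotho in hepatocytes, 3 had a higher mean log2 level in ASK1+hep, and 2 of the 4 had an unadjusted p under 0.05, against 5.77% of all genes compared. With so short a list, chosen with earlier results known, these shares do not measure enrichment. Nr0b2, the nuclear receptor SHP that represses bile acid synthesis, was at 19.1 ± 8.13 FPKM in controls and 40.8 ± 12.8 FPKM in ASK1+hep livers (SD, n = 5 each). Its log2 fold change was 1.08 (SE 0.269), with an adjusted p of 0.712 by limma. Cyp8b1, which sets the share of cholic acid, was at 245 ± 27.3 and 348 ± 90.6 FPKM (SD, n = 5 each), with a log2 fold change of 0.48 (SE 0.170) and an adjusted p of 0.812 by limma. Cyp7a1, the rate-limiting enzyme of bile acid synthesis, was at 64.6 and 71.3 FPKM (log2 fold change 0.063, SE 0.44). Nr5a2 was at 7.46 and 7.43 FPKM.

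Of 20 regulators of Fgf21 transcription, all past the filter, 11 were higher and 9 lower in mean log2 level in ASK1+hep (median log2 fold change 0.044), and 2 of 20 had an unadjusted p under 0.05, against 5.77% of all genes compared. Jun, an AP-1 subunit, was at 5.26 ± 3.37 FPKM in controls and 15.2 ± 10.5 FPKM in ASK1+hep livers (SD, n = 5 each), with a log2 fold change of 1.27 (SE 0.404) and an adjusted p of 0.812 by limma. Nr1d1, a circadian repressor, was at 15.2 ± 3.80 and 24.0 ± 6.89 FPKM (SD, n = 5 each), with a log2 fold change of 0.61 (SE 0.217) and an adjusted p of 0.812 by limma. Mlxipl, the carbohydrate response factor, was at 62.2 and 53.2 FPKM, and Nr3c1, the glucocorticoid receptor, at 8.24 and 6.85 FPKM. The log2 fold change of Atf4 was 0.41 (SE 0.229, adjusted p = 0.812 by limma). That of Ppara was -0.32 (SE 0.250, adjusted p = 0.815 by limma).

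Likeness of pattern was measured as Pearson's r of log2(FPKM + 1) over the 10 livers after the genotype means were removed, among 10051 genes with a mean of at least 1 FPKM. It is given without p, since the genes were picked as the highest of many and share libraries. For Fgf21 the 5 most alike were Nr1h2 (r = 0.985), Hspb6 (0.972), F12 (0.966), Cactin (0.960) and Grk2 (0.956). For Fgf1 they were Spty2d1 (0.951), Cry1 (0.944) and Ccnt1 (0.919), and for Klb Gpd1l (0.960), Fam20b (0.949) and Prrc2b (0.945). For Fgfr1 they were Ddi2 (0.950), Cnst (0.932) and Mat1a (0.884), and for Fgfr4 Iffo2 (0.977), Sytl1 (0.960) and Trp53i13 (0.960). For Fgfr2 they were 9330162012Rik (0.951), Abhd17b (0.927) and Smad9 (0.910), and for Fgfr3 Cbx7 (0.944), 2210039B01Rik (0.920) and Zfp467 (0.893). The same measure between the genes of the axis and Fgf21 was -0.64 for Fgf1, -0.57 for Klb, 0.65 for Fgfr4, -0.39 for Fgfr2, 0.072 for Fgfr3 and 0.0089 for Fgfr1. Fgf21 spread more in ASK1+hep livers (7.40 to 30.1 FPKM) than in controls (2.46 to 4.74 FPKM), so each r with Fgf21 rests mainly on the former. Within the controls, Fgf1 and Klb ran opposite to Fgf21 in 5 and 4 of 10 pairs, and Fgfr4 ran with it in 4.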

How the data were processed

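Liver RNA of 10 mice (5 ASK1f/f, 5 ASK1+hep) was poly-A selected and sequenced. The authors mapped reads with Hisat2, quantified them with FeatureCounts and deposited FPKM values per gene. The submitters' processing notes name fastp. The genome build and strandedness are not given in the sources used here, and GENCODE M21 (GRCm38) held 54409 of the 54532 genes, 98.3% of them with the same coordinates. FPKM times length gave whole reads to within 0.000187 of a read. Depth and limma-voom used these reads, as did the filter. The filter asked for a minimum of 10 reads, after scaling to the median library, in 5 or more livers and for 15 or more in all. The library size implied by the FPKM was not the number of reads on genes. It was smaller in ASK1+hep replicate 3 (13777799 against 15480136) and larger in ASK1f/f replicate 1 (16696171 against 15713626). Scaling by all reads used the reads on genes instead. The deposited unit is FPKM, so the main test ran on a log scale, with limma-voom on the recovered reads as an alternative. The DESeq2 test that the authors ran was not rerun.

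The test was limma 3.58.1 (R 4.3.3) of log2(FPKM + 1), a scale that understates changes of genes with low FPKM, with a mean-variance trend, no covariate and Benjamini-Hochberg adjustment over 13306 genes. Single genes, receptor shares, sums and the ligand ratio were also compared by exact two-sided permutation tests (252 splits), and correlations by 100000 permutations, in scipy 1.17.1. No p-value is printed for the ligand ratio, which was chosen after its values were seen. Plots were drawn with matplotlib 3.10.9, and the scripts were tested on simulated data. Counting errors cover sampling of reads only.

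The 7 genes and the lists were chosen with earlier results of these data known. Named genes were these 7, Map3k5, up to 2 higher and 2 lower genes per list with the lowest p, and for likeness the 3 most alike genes (5 for Fgf21). Cyp7a1, Kl and Fgf15 were named besides, after their values were seen, as were Atf4 and Ppara. The marker lists held 10 genes each for hepatocytes, stellate, endothelial, macrophage and pancreatic acinar cells, 8 for cholangiocytes, 9 for lymphocytes and 7 for adipocytes. Deviations of same-numbered livers correlated at 0.021 to 0.174 over the 5 pairs, with a mean of 0.107, against -0.027 for different-numbered livers. As this was not above 0.1 in each pair, the numbers were not taken as pairing the mice. Tag numbers of same-numbered animals are nonetheless consecutive except in replicate 5, and the labels do not say whether this marks pairs. The main and exact permutation tests took the livers as unpaired, and a pairing would change them. Animal tags carry another prefix in replicate 1 of each genotype, whose meaning the labels do not give. Alternatives were limma-voom (plain or with quality weights), a pseudocount of 0.1, no filter, a minimum of 10 reads in all livers, no trend, scaling by all reads, the replicate block, the tag prefix as a covariate, and leaving out livers. Promoter sequence came from RefSeq on GRCm38.p6.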

Additional observations from a re-analysis of the deposited data

Results flagged for a closer look

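Among 66 groups of 5 livers examined, 5 held a liver whose gap to its nearest neighbour took more than 0.71 of the group's range, and chance gives about 1 in 20. Fgfr2 took 20.6% of the summed receptor FPKM in ASK1+hep replicate 5, against 10.5% to 12.4% in the other ASK1+hep livers, and 11.2% in ASK1f/f replicate 2, against 9.98% to 10.2% in the other controls. ASK1+hep replicate 5 was also the liver with the lowest Fgf21 and the highest Fgf1 of its group. Map3k5 was at 19.8 FPKM in ASK1f/f replicate 5, against no more than 6.88 FPKM in the other controls. The same liver had the highest Dusp4 of the controls, 1.14 FPKM. Jun was at 11.3 FPKM in ASK1f/f replicate 2, the control liver with the highest Fgf21 (4.74 FPKM) and Fgf1 (32.5 FPKM). What sets these livers apart was not tested.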

How the results depend on the processing

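Of 140 values of the 7 genes over 20 alternative fits, 133 kept their direction and their side of the adjusted threshold. Fgf21 passed it in 2, with limma-voom with quality weights (log2 fold change 2.38, adjusted p = 0.0445 by limma), when 1 gene was called, and with ASK1+hep replicate 5 left out (adjusted p = 0.0161). Leaving out each liver in turn, 0 to 1 genes passed, and the Fgf21 log2 fold change ran from 1.87 to 2.35. Genes with an unadjusted p under 0.05 numbered 1222 with no filter, where more genes were compared, and 557 to 1724 when a liver was left out (1178 without ASK1+hep replicate 1, 1724 without replicate 5). Scaling by all reads moved the median of all genes to -0.053 and turned Klb to -0.012 and Fgf2 to -0.000277. Quality weights turned Fgf2 to -0.052 and Nr5a2 to 0.051, and Fgfr4 was at 0.020 without replicate 1 of each genotype. With a liver left out, log2 fold changes ran from -0.036 to 0.16 for Klb, -0.014 to 0.045 for Fgf2, -0.0035 to 0.083 for Fgf11 and -0.066 to 0.060 for Nr5a2, and the Fgfr4 share difference from -1.54 to 2.02 percentage points. Members with an exact permutation p at or below 0.05 then numbered 2 to 3, receptor shares 0 to 1 (0 without ASK1f/f replicate 2, 3, 4 or 5), and correlated pairs after adjustment 0 to 3 (3 without ASK1+hep replicate 5). The cause was not tested. With the replicate block Fgf21 had an adjusted p of 0.437 (limma), and the block changed no call. Fgf1 and Fgfr1 kept their direction in all 20 fits, between -0.74 and -0.48 and between -0.49 and -0.19. A single liver also moved Gpc1 from 0.44 to 0.28 (ASK1+hep replicate 3), Sdc4 from 0.21 to 0.13 and Gpc3 from -0.20 to -0.13 (ASK1f/f replicate 4), Ccnd1 from -0.30 to -0.19 and Spry2 from 0.14 to 0.071 (ASK1f/f replicate 1), and Nr3c1 from -0.27 to -0.42 (ASK1+hep replicate 5). Low read numbers limit precision for Fgf21 in the controls (as few as 35 reads), Fgfr1 (88), Fgf2 (16) and Fgf11 (7).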

Other observations

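Values of 3 other genes in the ASK1+hep livers, looked at after their values were seen, are given with no test. From the highest to the lowest Fgf21 value (replicates 3, 2, 4, 1 and 5), Map3k5 was at 7.68, 11.1, 12.4, 16.4 and 15.2 FPKM, and ran opposite to Fgf21 in 9 of 10 pairs of livers. In the controls it ran opposite in 3 of 10. Atf4, which encodes a stress-response factor, was at 66.9, 44.1, 58.8, 27.9 and 31.0 FPKM in the same order. Atf4 ran with Fgf21 in 8 of 10 pairs of ASK1+hep livers and 5 of 10 control pairs. Of the listed regulators of Fgf21, only Atf4 and Ppara were ordered in this way, and a part of Atf4 in the Fgf21 values was not tested. Ppara, the fasting-response nuclear receptor, was at 11.2, 15.9, 15.6, 33.6 and 29.0 FPKM, and ran opposite in 8 of 10 pairs of ASK1+hep livers and 6 of 10 control pairs. Reads of the ASK1 cDNA and of endogenous Map3k5 are not separated in these values.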
